A study of Mus musculus with 10 samples.

Results

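The gene set described here holds 8 genes of B lymphocytes and Tnfsf13b, the gene of the B cell survival factor BAFF. All 9 symbols were found in the deposited table of 24202 genes. Tnfsf13b was chosen by its normalized counts, which were lower in PIIO-1 tumors, and the 8 B cell genes were proposed when results of the same tumors were known. Their differences between the treatment groups are therefore given as a description, without a test. The samples are 10 whole tumors of MB-49, a mouse bladder cancer line, of which 5 came from mice treated with PIIO-1, an antibody to GARP, and 5 from mice given PBS. All mice, the PBS group included, were hLrrc32 knock-in animals (Lrrc32 is the gene of GARP), and each received 100000 cells subcutaneously on the right side. The PIIO-1 schedule was 200 ug per mouse by the intraperitoneal route on day 6 and again on day 9, and tumors were taken on day 10. The schedule of the PBS injections is not stated separately. RNA came from suspended cells of each whole tumor, so tumor, stromal and immune cells are mixed, and a smaller number of B cells cannot be told apart from less RNA in each of them. The labels do not say that replicates were separate animals, so the spread given here is that between samples.

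B cells carry an antigen receptor made of immunoglobulin heavy and light chains, which is associated with the signalling chains CD79A and CD79B. PAX5 is the transcription factor that keeps a cell committed to the B lineage, and it acts on the gene of CD79A. BAFF is made largely by myeloid and stromal cells. Mature B cells bind it through the BAFF receptor, TACI and BCMA, and depend on it to survive. B cells in tumors can lie scattered or form lymphoid aggregates in which they mature to antibody-secreting plasma cells.

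Promoters of 4 of the 9 genes are held in the RefSeq table for GRCm38.p6 (Cd79a, Pax5, Fcrla and Tnfsf13b), each as a window of 300 bases that runs from 250 bases before a start site to 50 bases after it. The windows of 3 genes are printed 5′ to 3′ because the results turn on these genes. Cd79a varied widely between tumors, Pax5 hardly varied, and Tnfsf13b was the member chosen for its lower values in PIIO-1 tumors. Capitals mark matches to 5 motifs searched on both strands: the octamer ATGCAAAT, the EBF1 palindrome CCCNNGGG, the E2A E-box CAGGTG, the Ets core GGAAGT and an interferon response core. The motifs were chosen after the windows had been read.
Cd79a, chr7:24897247-24897546, plus strand: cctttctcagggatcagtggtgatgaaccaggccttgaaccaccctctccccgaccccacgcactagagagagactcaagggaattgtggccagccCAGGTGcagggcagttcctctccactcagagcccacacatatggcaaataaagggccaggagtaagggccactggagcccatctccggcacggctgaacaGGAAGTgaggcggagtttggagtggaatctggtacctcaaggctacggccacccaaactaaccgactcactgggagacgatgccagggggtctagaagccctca
Pax5, chr4:44710645-44710944, minus strand: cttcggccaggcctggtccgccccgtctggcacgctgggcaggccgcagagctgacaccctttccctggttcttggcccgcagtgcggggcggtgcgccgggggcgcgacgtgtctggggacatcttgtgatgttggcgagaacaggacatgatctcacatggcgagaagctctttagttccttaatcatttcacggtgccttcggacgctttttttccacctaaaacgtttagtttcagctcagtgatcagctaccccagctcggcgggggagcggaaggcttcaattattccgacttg
Tnfsf13b, chr8:10006383-10006682, plus strand: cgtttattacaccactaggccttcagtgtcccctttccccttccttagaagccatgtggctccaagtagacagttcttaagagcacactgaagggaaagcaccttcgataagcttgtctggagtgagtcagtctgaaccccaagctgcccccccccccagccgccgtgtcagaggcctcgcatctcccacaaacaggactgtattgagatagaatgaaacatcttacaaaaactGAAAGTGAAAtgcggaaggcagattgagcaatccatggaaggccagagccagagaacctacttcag
The Cd79a window held 1 E2A E-box and 1 Ets core, and the Pax5 window held none of the 5 motifs. Tnfsf13b has 2 windows in the table. The interferon response core was found in the printed one, just before the start site of that window. The other Tnfsf13b window, whose start site is the gene start given below, held none of the 5 motifs. The Fcrla window, not printed, held 1 E2A E-box and also the interferon response core. The start sites of the 3 printed windows differ from the gene starts in the coordinates given below. Those of Cd79a and Tnfsf13b lie inside the gene as placed there, and that of Pax5 lies before it. Among all 32851 windows of this length, 1.74% held the octamer, 13.7% the EBF1 palindrome, 20.2% the E-box, 23.8% the Ets core and 3.44% the interferon response core. A match describes these letters and shows no binding.

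Libraries held between 18843192 and 37581521 reads in genes, so that 3 reads were worth between 2.45 and 4.68 normalized counts. The keratin genes Krt8 and Krt18 were abundant in all 10 tumors, while the urothelial gene Upk1b did not pass 13.8 normalized counts in PIIO-1 tumors or 21.2 in PBS tumors. limma, fitted over 16767 genes, called 0 of them (0%) at an adjusted p under 0.05, and edgeR also called 0 (0%). DESeq2 called 3 (0.0179%), none of which is a member. Before adjustment, p was under 0.05 for 944 genes (5.63%) in limma, 975 (5.81%) in edgeR and 1012 (6.04%) in DESeq2. Each difference below is the PIIO-1 mean less the PBS mean of log2(normalized count + 1), with its limma standard error (SE), and it understates the difference of low genes.

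The signalling chains of the B cell receptor were highest in PIIO-1 tumor 5. Cd79a (ENSMUSG00000003379.7, chromosome 7, 24897381 to 24902197 in GRCm38, plus strand) had 38.8, 41.1, 33.2, 79.4 and 142 normalized counts in PIIO-1 tumors 1 to 5, against 41.1, 24.4, 25.3, 32.8 and 43.9 in PBS tumors 1 to 5. PIIO-1 tumors 4 and 5 lay above every PBS tumor, and the other PIIO-1 tumors lay within the PBS range. The group means were 67.0 ± 46.0 normalized counts in PIIO-1 tumors and 33.5 ± 8.90 in PBS tumors (SD, n = 5 each), a difference of 0.79 (SE 0.37), which became 0.46 without PIIO-1 tumor 5. Its partner Cd79b (chromosome 11, 106311341 to 106314762, minus strand) had 17.9, 47.0, 33.2, 46.6 and 112 normalized counts in PIIO-1 tumors, against 25.8, 25.4, 42.5, 46.8 and 28.4 in PBS tumors. PIIO-1 tumor 1 was the lowest and PIIO-1 tumor 5 the highest of all 10 tumors for Cd79b. The difference was 0.39 (SE 0.40) over all tumors and 0.050 without PIIO-1 tumor 5.

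Ms4a1 encodes CD20, the surface protein of mature B cells, and was the least abundant member. It had 6.96, 18.6, 12.1, 14.8 and 67.2 normalized counts in PIIO-1 tumors, against 11.5, 0.975, 13.1, 7.80 and 12.1 in PBS tumors. The value of PBS tumor 2 is a single read, below the worth of 3 reads. The group means were 23.9 ± 24.5 normalized counts in PIIO-1 tumors and 9.07 ± 4.94 in PBS tumors (SD, n = 5 each). PIIO-1 tumors 2, 4 and 5 lay above every PBS tumor. All 9 members entered the fit, which asked for a mean of 10 normalized counts or more over the 10 tumors, but the PBS mean of Ms4a1 lies under that minimum, and it passed through its PIIO-1 values. Its difference of 1.16 (SE 0.64) became 0.69 when PIIO-1 tumor 5 was left out, and 0.64 when PBS tumor 2 was.

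**Figure D1:**
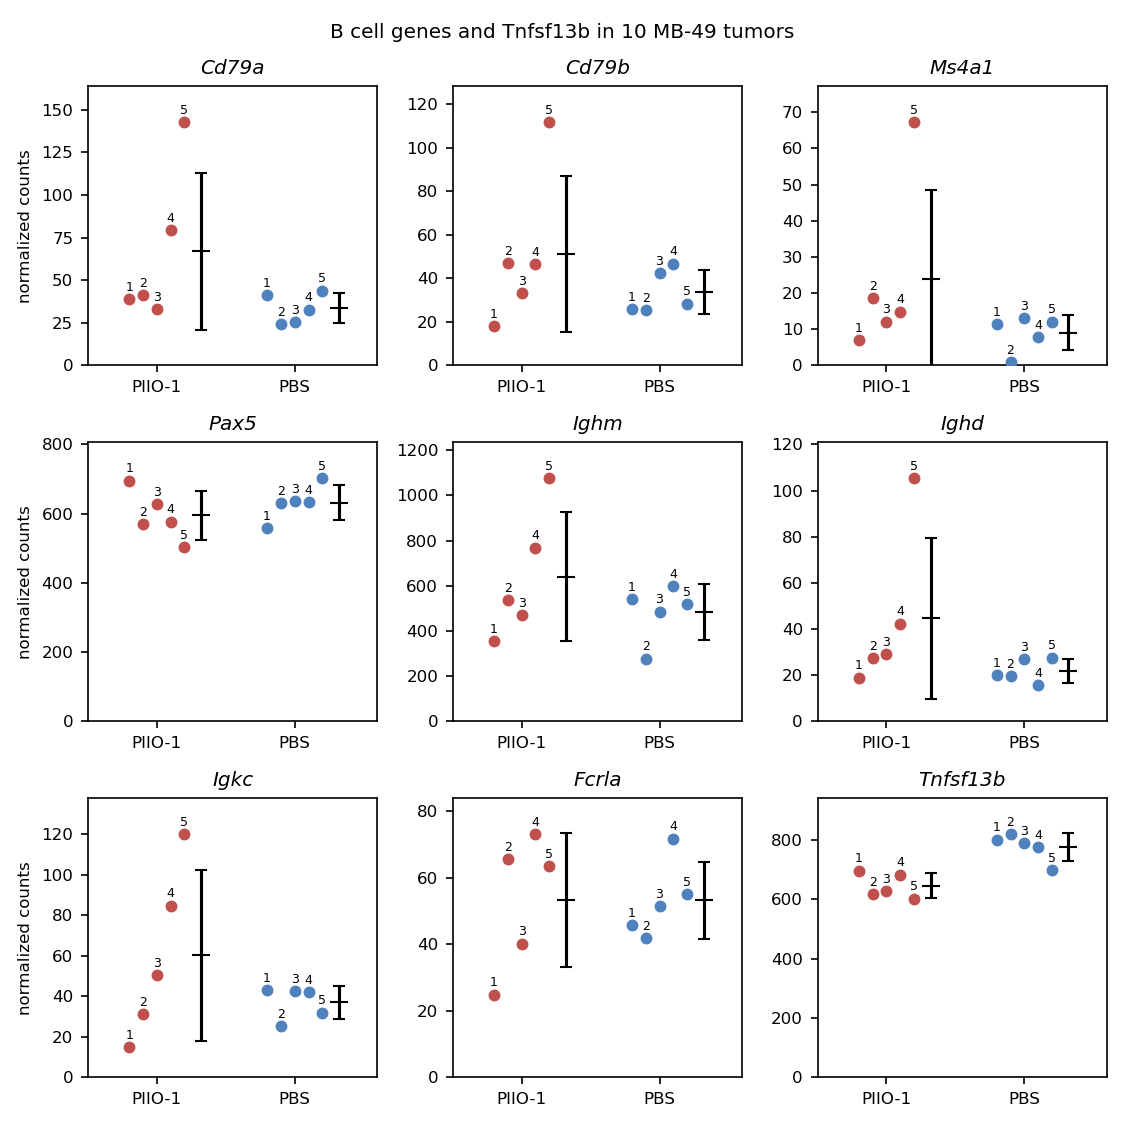
Normalized counts of each member in every tumor, with PIIO-1 tumors in red on the left of each panel and PBS tumors in blue on the right. Digits give the tumor number and bars the mean ± SD of 5 tumors, with the lower bar of Ms4a1 reaching past the axis at 0. PIIO-1 tumor 5 is the highest of 10 tumors for Cd79a, Cd79b, Ms4a1, Ighm, Ighd and Igkc, and the lowest for Pax5 and Tnfsf13b.

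The immunoglobulin constant genes among the members (Ighd, Igkc and Ighm) followed the same tumors. Ighd, the heavy chain of IgD on naive B cells (chromosome 12, 113406604 to 113416324, minus strand), had 18.9, 27.4, 29.2, 42.3 and 105 normalized counts in PIIO-1 tumors, against 20.1, 19.5, 26.9, 15.6 and 27.6 in PBS tumors. PIIO-1 tumors 3, 4 and 5 were above every PBS tumor. The Ighd difference was 0.76 (SE 0.39), and 0.38 without PIIO-1 tumor 5. Igkc, the kappa light chain constant gene (chromosome 6, 70726435 to 70726966, plus strand), had 14.9, 31.3, 50.3, 84.7 and 119.8 normalized counts in PIIO-1 tumors, against 43.0, 25.4, 42.5, 42.1 and 31.9 in PBS tumors. Here PIIO-1 tumor 1 lay below every PBS tumor and PIIO-1 tumors 3, 4 and 5 lay above them, so the PIIO-1 values enclose the PBS values on both sides. The Igkc difference was 0.39 (SE 0.46), and 0.059 without PIIO-1 tumor 5.

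Ighm, the IgM heavy chain gene (chromosome 12, 113418558 to 113422730, minus strand), was far more abundant than the other B cell receptor genes. It had 356, 535, 471, 768 and 1075 normalized counts in PIIO-1 tumors, against 539.7, 278, 485, 599 and 520.2 in PBS tumors. PIIO-1 tumors 4 and 5 were again the only PIIO-1 tumors above the PBS range. The Ighm difference was 0.34 (SE 0.29), and 0.13 without PIIO-1 tumor 5. Per kilobase of annotated exon, Ighm averaged 298 normalized counts over the 10 tumors, against 91.3 for Igkc, 34.5 for Cd79a, 29.7 for Cd79b, 17.5 for Ighd and 2.67 for Ms4a1. The ratio of Ighm to Cd79a counts was between 7.55 and 14.2 in PIIO-1 tumors and between 11.4 and 19.2 in PBS tumors, with the lowest ratio in PIIO-1 tumor 5.

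The B lineage factor Pax5 did not share this pattern. Pax5 (chromosome 4, 44524757 to 44710487, minus strand) had 695, 571, 628, 577 and 503.7 normalized counts in PIIO-1 tumors, against 558, 630.05, 637, 634 and 702 in PBS tumors. Its highest and lowest tumors differed by a ratio of 1.39, where those of Cd79a differed by a ratio of 5.84. PIIO-1 tumor 5, with the most Cd79a, had the least Pax5. Per kilobase of exon, Pax5 averaged 69.3 normalized counts, above Cd79a at 34.5. The Pax5 difference was -0.092 (SE 0.090). Antisense transcripts share 125 and 636 exonic bases with Pax5, and because the strand setting of the counting is not given, their reads and those of Pax5 cannot be told apart. Pax5 therefore did not order the tumors as the receptor genes did, although the set labels all of them as B cell genes.

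Fcrla, an intracellular Fc receptor-like protein of B cells (chromosome 1, 170917576 to 170927583, minus strand), also stood apart from the receptor genes. It had 24.9, 65.6, 40.2, 73.0 and 63.5 normalized counts in PIIO-1 tumors, against 45.9, 41.9, 51.4, 71.8 and 55.1 in PBS tumors. The groups overlapped, with means of 53.4 ± 20.1 in PIIO-1 tumors and 53.2 ± 11.5 in PBS tumors (SD, n = 5 each). Its difference of -0.069 (SE 0.28) was -0.20 when PIIO-1 tumor 4 was left out and 0.17 when PIIO-1 tumor 1 was, so its sign rests on single tumors.

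**Figure D2:**
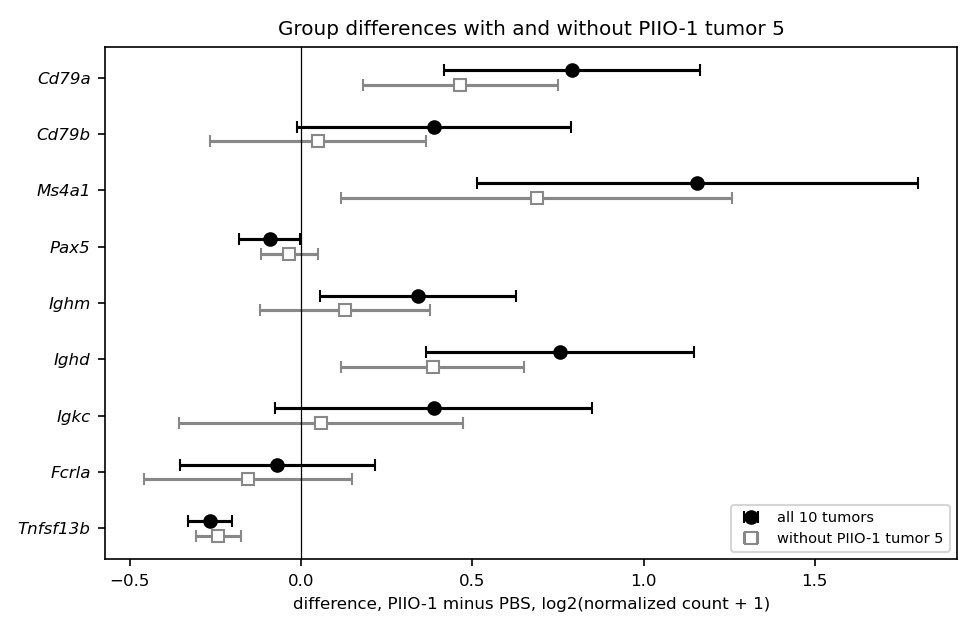
Difference between the groups for each member, PIIO-1 minus PBS, on the log2(normalized count + 1) scale, with bars of 1 SE. Black circles use all 10 tumors and open grey squares leave out PIIO-1 tumor 5. Without that tumor Cd79b is at 0.050 and Igkc at 0.059, while Tnfsf13b is at -0.24.

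Of the 8 B cell members, 6 had positive and 2 negative differences, with a median of 0.39, beside a median of 0.0027 over all 16767 genes. Without PIIO-1 tumor 5 the median of these members was 0.094, again with 6 positive. PIIO-1 tumor 5 was the highest of the 10 tumors for 6 of the 8 genes, and it was so for 16.7% of all genes tested. PIIO-1 tumor 4 came second in 4 of the 8. The 6 positive members include Ms4a1, which entered the fit only through its PIIO-1 values. The members were proposed with results known, so nothing is read from these counts and medians.

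Other genes of B cell identity and receptor signalling were taken as a list of 26, of which 20 were abundant enough for the fit. limma called 0 of the 20 in either direction, with 0 at an unadjusted p under 0.05, and neither edgeR nor DESeq2 called any (0 each). The median difference was 0.18 with 14 positive and 6 negative, and 0.0031 with 11 positive without PIIO-1 tumor 5. PIIO-1 tumor 5 was the highest tumor for 11 of the 20. The genes with the smallest p were Cd72, a coreceptor that dampens receptor signals, at -0.41 (SE 0.25), Fcer2a, the IgE receptor CD23 of follicular B cells, at 1.03 (SE 0.62), and Fcmr, an IgM receptor, at 0.70 (SE 0.43). All 3 shared the adjusted p of 0.837 that limma gave as its smallest. Without PIIO-1 tumor 5 these differences were -0.39, 0.51 and 0.32. Cd72 shares 1423 exonic bases with Tesk1 on the opposite strand, so the limit given for Pax5 holds for it too. Fcer2a averaged 25.2 normalized counts in PIIO-1 tumors and 8.54 in PBS tumors, and Fcmr averaged 16.5 in PIIO-1 tumors and 7.82 in PBS tumors, so that both entered the fit only through their PIIO-1 values, as Ms4a1 did.

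Within this list there were patterns that were noticed after their values were seen. Fcer2a had 72.6 and Fcmr 39.9 normalized counts in PIIO-1 tumor 5, and both were second highest in PIIO-1 tumor 4. For Cd22, Cd72, Cd180, Blnk and Pou2af1, PIIO-1 tumor 5 was between rank 7 and rank 9 of 10. Lyn, Syk and Btk, kinases that myeloid cells also use, were far above Cd79a per kilobase of exon, at 1187, 514 and 262 normalized counts.

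**Figure D3:**
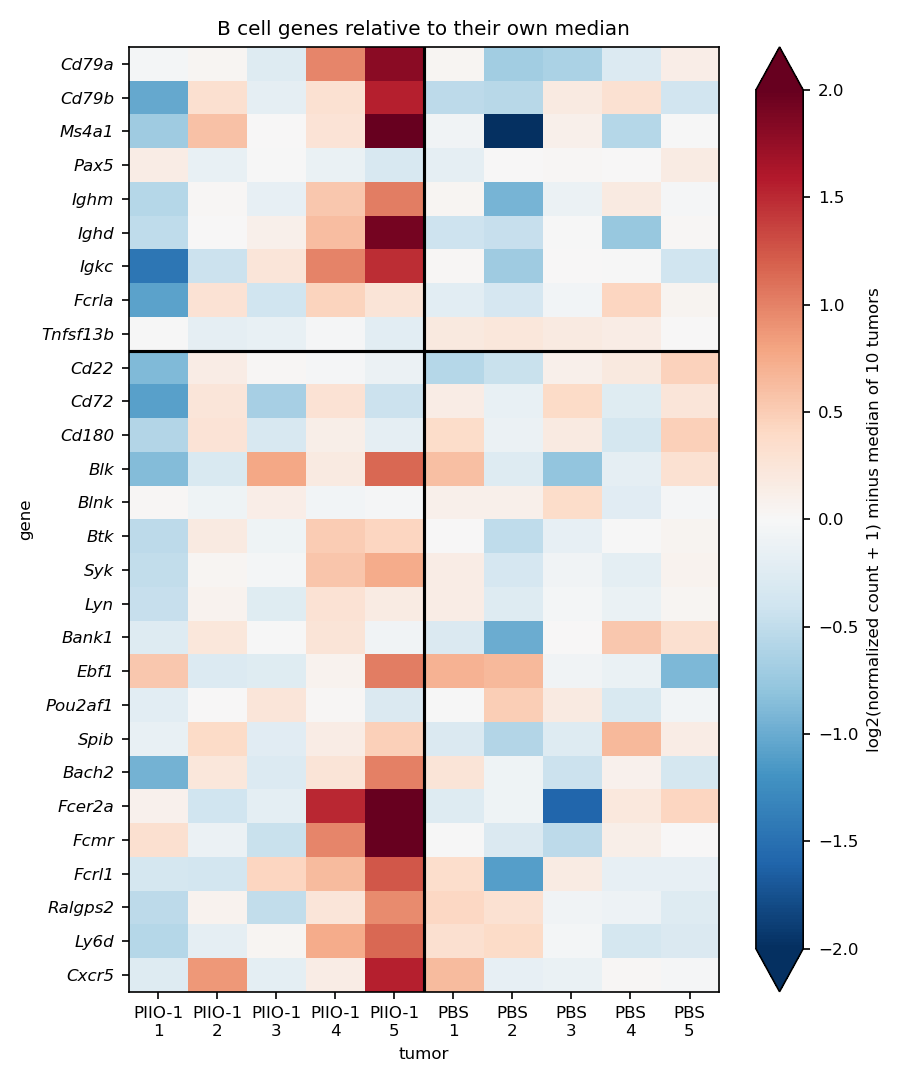
Each row is a gene and each column a tumor, with PIIO-1 tumors left of the vertical line. Colour gives the log2(normalized count + 1) value minus the median of that gene over 10 tumors, with larger departures shown at the end colours, with the 9 members above the horizontal line and other tested B cell genes below. Red in PIIO-1 tumor 5 marks Cd79a, Ms4a1, Ighd, Fcer2a and Fcmr, and Pax5 and Blnk stay near their medians in every tumor.

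Listed genes of antibody-secreting cells were uneven in level. Jchain, which joins IgM and IgA polymers, did not exceed 13.8 normalized counts in any PIIO-1 tumor or 11.4 in any PBS tumor, and Mzb1, a chaperone of antibody-secreting cells, did not exceed 13.6 in PIIO-1 tumors or 5.73 in PBS tumors. Of 13 listed plasma cell and class-switched immunoglobulin genes 11 were in the table, and 6 of these entered the fit. limma called 0 of the 6, and 1 had an unadjusted p under 0.05, while edgeR and DESeq2 each called 0. The median difference was 0.11 with 5 positive, and 0.075 with 3 positive without PIIO-1 tumor 5. Xbp1, a transcription factor of secretory cells, stood at 5523 ± 443 normalized counts in PIIO-1 tumors and 4887 ± 570.3 in PBS tumors (SD, n = 5 each; difference 0.18, SE 0.082; limma adjusted p = 0.837). Derl3, a protein of endoplasmic reticulum quality control, differed by 0.36 (SE 0.39). Sdc1, which encodes the plasma cell marker CD138 and is also an epithelial proteoglycan, stood at 7309.5 ± 511 normalized counts in PIIO-1 tumors and 7414 ± 525 in PBS tumors (SD, n = 5 each) and differed by -0.020 (SE 0.062). Prdm1 and Irf4, also on the list, averaged 1118 and 394 normalized counts over all tumors. Sdc1 and Xbp1 were thus plentiful where Jchain and Mzb1 were near the limit of counting.

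The heavy chain reads were nearly all unswitched. Ighg1, Ighg2b, Ighg2c and Igha together gave between 9 and 43 reads per PIIO-1 tumor and between 4 and 35 reads per PBS tumor. Their share of all heavy chain constant reads was 2.33%, 6.35%, 7.95%, 2.17% and 0.763% in PIIO-1 tumors 1 to 5, against 2.17%, 3.48%, 5.00%, 1.0% and 5.22% in PBS tumors 1 to 5. The share in PIIO-1 tumor 5 has a Wilson 95% interval of 0.415% to 1.40%, and that in PIIO-1 tumor 3 one of 5.95% to 10.5%, which cover counting error only. The group means were 3.91% ± 3.07 in PIIO-1 tumors and 3.37% ± 1.81 in PBS tumors (SD, n = 5 each; exact permutation p = 0.746, two-sided). Lambda light chains (Iglc1, Iglc2 and Iglc3) made up 22.6% ± 7.49 of light chain constant counts in PIIO-1 tumors and 30.2% ± 2.98 in PBS tumors (SD, n = 5 each; exact permutation p = 0.0952, two-sided). By tumor the lambda share was 16.7%, 20%, 15.3%, 31.0% and 30.2% in PIIO-1 tumors, against 28.6%, 33.3%, 30.7%, 32.5% and 26.0% in PBS tumors. The low shares stand on 3 to 9 lambda reads in PIIO-1 tumors 1, 2 and 3. The switched share is built partly on the members Ighm and Ighd, and the lambda share on the member Igkc. Because members were proposed with results known, nothing is read from the p of either share, here or under other settings.

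Reads on immunoglobulin variable segments were few. In all, 17 segments were in the table, with between 25 and 70 reads per PIIO-1 tumor and between 16 and 56 reads per PBS tumor. None of the 17 had fewer than 10 reads over all tumors, and whether rarer segments were left out is not stated. The values below describe these 17 only. Reads fell on 7 to 14 segments in PIIO-1 tumors and on 8 to 12 in PBS tumors. The 17 include Ighv8-10, which is annotated as a pseudogene and had 49 reads in all, the most of any segment. Its reads were kept in the summed level below. The most abundant segment was Ighv8-10, Igkv14-111, Ighv6-3, Iglv3 and Iglv3 in PIIO-1 tumors 1 to 5, and Ighv1-76, Ighv8-10, Ighv8-10, Igkv14-111 and Ighv6-4 in PBS tumors 1 to 5. It held between 16.7% and 32% of segment reads in PIIO-1 tumors and between 14.7% and 31.3% in PBS tumors, so that no segment held most of them. On the log2(summed normalized count + 1) scale the segments averaged 5.50 ± 0.49 in PIIO-1 tumors and 5.01 ± 0.47 in PBS tumors (SD, n = 5 each; difference 0.49, exact permutation p = 0.159, two-sided). Adjusted over these 3 exact permutation tests, p was 0.238 for the segments, 0.238 for the lambda share and 0.746 for the switched share, where 5 against 5 tumors allow no p below 0.00794. Near-identical segments may share reads, so single segments are uncertain.

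Tnfsf13b was lower in every PIIO-1 tumor than in any PBS tumor, which is the pattern it was chosen for. Tnfsf13b (ENSMUSG00000031497.9, chromosome 8, 10006467 to 10039072, plus strand) had 696, 618, 628, 683 and 602 normalized counts in PIIO-1 tumors, against 800.5, 818, 788, 776 and 698 in PBS tumors. The gap between the groups is narrow, since the highest PIIO-1 value of 696.3 is next to the lowest PBS value of 697.6. The group means were 645 ± 41.7 normalized counts in PIIO-1 tumors and 776 ± 46.6 in PBS tumors (SD, n = 5 each), a difference of -0.27 (SE 0.064). The difference lay between -0.30 and -0.24 with any tumor left out. Of all genes tested, 77 (0.459%) had every PIIO-1 value below every PBS value, and nothing is read from Tnfsf13b being among them.

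**Figure D4:**
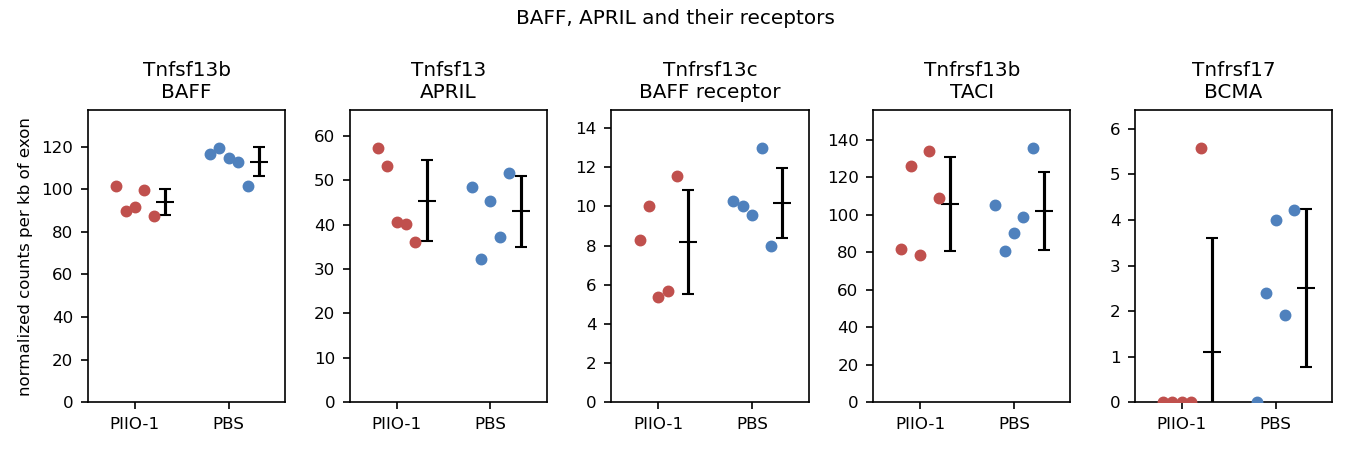
Normalized counts per kilobase of annotated exon for BAFF, APRIL and their receptors in each tumor, with PIIO-1 tumors in red on the left and PBS tumors in blue on the right, and mean ± SD of 5 tumors. The lower bar of Tnfrsf17 in PIIO-1 tumors reaches past the axis at 0. The groups are separate for Tnfsf13b and overlap for the other 4 genes.

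The receptors of BAFF were unequal in level. Per kilobase of exon, Tnfrsf13b, which encodes TACI, averaged 104 normalized counts over the 10 tumors, against 9.17 for Tnfrsf13c, the BAFF receptor proper, and 1.81 for Tnfrsf17, which encodes BCMA of plasma cells. Tnfrsf17 had no read in PIIO-1 tumors 1 to 4 and 4.54 normalized counts in PIIO-1 tumor 5, against at most 3.445 in PBS tumors. Tnfrsf13b stood at 300.3 ± 71.3 normalized counts in PIIO-1 tumors and 289 ± 59.2 in PBS tumors (SD, n = 5 each), and Tnfrsf13c at 16.8 ± 5.47 in PIIO-1 tumors and 20.8 ± 3.68 in PBS tumors. For Tnfrsf13c, PIIO-1 tumor 5 had rank 2 of 10 (23.6 normalized counts) and PIIO-1 tumor 4 rank 9 (11.6). Its difference was -0.34 (SE 0.25). Tnfsf13, the related ligand APRIL, differed by 0.077 (SE 0.18), and shares exons with a readthrough gene and an antisense gene.

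Of 12 listed genes of the BAFF and APRIL pathway 11 entered the fit, and limma called 0 of them, with 1 at an unadjusted p under 0.05, while edgeR and DESeq2 each called 0. The median difference was 0.046 with 9 positive and 2 negative. Map3k14, which encodes NIK, the kinase of the noncanonical NF-kB route below the BAFF receptor, stood at 2712 ± 415 normalized counts in PIIO-1 tumors and 2295 ± 110.25 in PBS tumors (SD, n = 5 each; difference 0.23, SE 0.092; limma adjusted p = 0.837). Birc3, a ubiquitin ligase that holds NIK down, differed by 0.18 (SE 0.17). Nfkb2 and Relb, the end points of that route, differed by 0.046 (SE 0.046) and 0.073 (SE 0.072), and were named after their values were seen.

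Genes that organise lymphoid tissue were low or did not pass the test. Cxcl13, the chemokine that draws B cells into follicles, did not exceed 4.97 normalized counts in PIIO-1 tumors or 7.64 in PBS tumors. Ccl21a had 11.8 normalized counts in PIIO-1 tumor 5 and at most 1.95 elsewhere. Of 10 listed genes 6 were in the table and 4 entered the fit, with 0 called by limma, edgeR or DESeq2 and 0 at an unadjusted p under 0.05 by limma. Their median difference was 0.15, and 0.041 without PIIO-1 tumor 5. Ccr7, a homing receptor of lymphocytes and mature dendritic cells, differed by 0.47 (SE 0.25) and Lta by -0.46 (SE 0.29).

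B cell genes were also read beside a gene of all leukocytes, B cells included. Ptprc, which encodes CD45 of all leukocytes, had 7928, 13292, 10188, 17239 and 17430 normalized counts in PIIO-1 tumors, against 14609, 9056, 11047, 12735 and 11985 in PBS tumors, so PIIO-1 tumors 4 and 5 were highest here too. Cd79a per 10000 normalized counts of Ptprc was between 30.9 and 81.7 in PIIO-1 tumors and between 22.9 and 36.6 in PBS tumors, with the highest value again in PIIO-1 tumor 5. The ratio of Pax5 to Ptprc was instead lowest in PIIO-1 tumor 5. With Ptprc as a covariate, the difference was 0.65 for Cd79a, 0.24 for Cd79b, 0.93 for Ms4a1 and 0.21 for Ighm. It was 0.63 for Ighd, 0.19 for Igkc, -0.18 for Fcrla and -0.060 for Pax5. Ighm followed Ptprc in rank (Spearman rho 0.95 over 10 tumors), Cd79a less closely (0.73) and Pax5 in reverse (-0.72), which describes 10 tumors that also differ in treatment and depth.

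**Figure D5:**
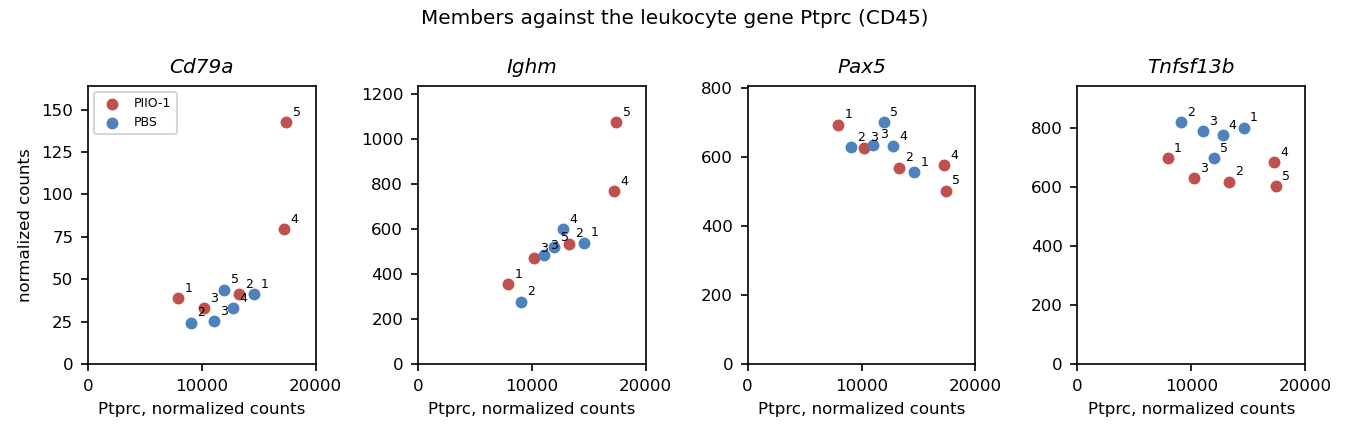
Normalized counts of Cd79a, Ighm, Pax5 and Tnfsf13b in each tumor against those of Ptprc, with PIIO-1 tumors in red, PBS tumors in blue and digits for the tumor number. Ighm climbs with Ptprc over the 10 tumors, Cd79a stands out in PIIO-1 tumors 4 and 5, Pax5 declines with Ptprc, and Tnfsf13b, chosen for its group difference, shows PIIO-1 values from 602 to 696 and PBS values from 698 to 818.

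Red blood cell genes were also highest in PIIO-1 tumor 5. All 7 listed genes were in the table, and their summed level was between 8459 and 58771 normalized counts in PIIO-1 tumors and between 5563 and 12905 in PBS tumors. Of the 6 tested, PIIO-1 tumor 5 was highest for all 6, the median difference was 1.41 (1.03 without that tumor), and limma called 0, with 5 at an unadjusted p under 0.05; edgeR and DESeq2 each called 0. Hba-a2, an alpha-globin gene with a near-identical copy, differed by 1.56 (SE 0.39), and the beta-globin genes Hbb-bs and Hbb-bt by 1.42 (SE 0.42) and 1.57 (SE 0.47). The part of blood in the B cell gene levels was not tested.

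T cell genes were present in all tumors, with a summed level over 8 genes between 1916 and 4974 normalized counts in PIIO-1 tumors and between 2559 and 4885 in PBS tumors. Their median difference was -0.047 with 1 of 8 positive (-0.23 with 0 positive without PIIO-1 tumor 5), and limma called 0, with 0 at an unadjusted p under 0.05, as did edgeR and DESeq2 (0 each). Cd3e differed by -0.18 (SE 0.29), Trac by -0.15 (SE 0.26) and Cd3g by -0.063 (SE 0.29). The 7 genes of plasmacytoid dendritic cells, which share some transcripts with B cells, summed to between 22751 and 27957 normalized counts in PIIO-1 tumors and between 24524 and 30061 in PBS tumors, most of it from Bst2, which other cells also express. Siglech, the defining marker, differed by 0.43 (SE 0.27), Bst2 by -0.20 (SE 0.088) and Ly6c2 by 0.28 (SE 0.22). The median of the 7 differences was 0.22, with 6 positive, and 0.034 without PIIO-1 tumor 5. For this list limma called 0, with 1 at an unadjusted p under 0.05.

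Myeloid genes were read beside Tnfsf13b because myeloid cells make BAFF, and stromal genes were not. The 10 myeloid genes summed to between 23832 and 47829 normalized counts in PIIO-1 tumors and between 24211 and 36638 in PBS tumors, with 9 of 10 differences positive and a median of 0.31 (0.17 without PIIO-1 tumor 5). Itgam, which encodes CD11b, differed by 0.35 (SE 0.15), Cd14 by 0.37 (SE 0.25) and Ly6g, a neutrophil marker, by 0.33 (SE 0.22). Itgam shares 3450 exonic bases with Gm49368 on the same strand, and how reads there were assigned is not known. limma called 0 of the 10, with 1 at an unadjusted p under 0.05. Interferon induces Tnfsf13b in myeloid cells, so 12 interferon response genes were read beside it. All 12 differences were negative, with a median of -0.16, and 2 were positive without PIIO-1 tumor 5. Their summed level ranged from 65138 to 128600 normalized counts in PIIO-1 tumors and from 87060 to 115370 in PBS tumors, so the groups overlapped. Gbp3 differed by -0.44 (SE 0.15) and Cxcl9 by -0.37 (SE 0.23). limma called 0 of the 12, with 1 at an unadjusted p under 0.05, and edgeR and DESeq2 called 0 in the plasmacytoid, myeloid and interferon lists. The part of interferon in the Tnfsf13b level was not tested.

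Among the 13110 genes that averaged 50 normalized counts or more, those nearest to Cd79a in rank over the 10 tumors were Aldh2 (Spearman rho 0.99), Adora2b (0.98) and Cyb5r4 (0.98). Those nearest to Tnfsf13b were Mkrn3 (0.98), Rragb (0.96) and Pla1a (0.95). Mkrn3 averaged 121 ± 12.7 normalized counts in PIIO-1 tumors and 143 ± 4.33 in PBS tumors (SD, n = 5 each). Ranks over 10 tumors that differ between groups, as those of Tnfsf13b do, carry the group difference with them, and with this many genes compared a high rho is only a description.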

How the data were processed

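RNA of 10 tumors was sequenced in bulk. The authors deposited a signal, gene counts divided by a size factor per library. Per the submitters' processing notes they used HISAT2, featureCounts, DESeq2 and build GRCm38; the annotation, the tool versions and any strand setting were not given in the sources used here. Each column was divided by its smallest step, and 100% of values came out as whole reads within 0.001 read. From them, log2(value + 1) was compared for the 16767 genes averaging 10 normalized counts or more by limma 3.58.1 (R 4.3.3, intensity trend, Benjamini-Hochberg adjustment over all genes, threshold 0.05). edgeR 4.0.16 and DESeq2 1.42.0 were run on the whole reads as alternatives, DESeq2 without its own filter. Coordinates and exon lengths come from GENCODE M21 (GRCm38), in which 23960 symbols matched 1 gene. Immunoglobulin sums and shares were compared by exact permutation tests.

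Members and lists were chosen with earlier results of these data known. Named genes are the members, per list the 3 of smallest p, the 3 nearest in rank to Cd79a and to Tnfsf13b and the most abundant variable segment per tumor; others are named after their values were seen, and a few genes are not reported here. Ighg3, Ighe, Ccl19, Glycam1, Madcam1 and Fdcsp were not analysed here. The limma step was tested on simulated data. Alternatives were pseudocounts of 0.5 and 5, no filter, a minimum mean of 50, TMM scaling, no trend, a replicate block, Ptprc as a covariate and each tumor left out.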

Additional observations from a re-analysis of the deposited data

Results flagged for a closer look

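Within groups of 5 tumors, 90 sets of values were searched for a tumor far from the other 4, measured as its gap to the nearest tumor divided by the range of the group. In 5 sets this ratio was above 0.71, where chance gives about 1 in 20. The 90 sets did not cover every listed gene. Genes outside them also passed 0.71, among them Ccl21a, Tnfrsf17 and Hba-a1 in PIIO-1 tumor 5. The T cell genes Cd2 and Lck did so in PBS tumor 1. Whether normalized counts meet the assumptions behind the chance figure was not tested. The number of flagged sets therefore depends on the sets searched, and nothing is read from its closeness to chance.

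Ms4a1 in PIIO-1 tumor 5 (67.2 normalized counts, next tumor 18.6) had a ratio of 0.807. Ighd in PIIO-1 tumor 5 (105 normalized counts, next tumor 42.3) had a ratio of 0.729. Map3k14 in PBS tumor 5 (2489 normalized counts, next tumor 2272) had a ratio of 0.809. Cd3g in PBS tumor 1 (589 normalized counts, next tumor 313) had a ratio of 0.819. Hbb-bs in PBS tumor 5 (7886 normalized counts, next tumor 4087) had a ratio of 0.834.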

How the results depend on the processing

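limma called 0 genes under every setting tried, and edgeR called 0. DESeq2 called 3 genes, and 1 with its own filter on, a setting added after the data were seen; the cause was not tested. No listed gene was called under the other settings, and lists were not counted with that filter on. Over the pseudocounts, filters, scaling, count models and Ptprc covariate (without the minimum mean of 50 for Cd79b, Ms4a1, Ighd and Igkc, which lie under it), differences ran from 0.65 to 1.00 for Cd79a, 0.24 to 0.62 for Cd79b, 0.83 to 1.39 for Ms4a1, 0.21 to 0.41 for Ighm, 0.63 to 1.02 for Ighd, 0.19 to 0.71 for Igkc, -0.096 to -0.060 for Pax5, -0.18 to 0.017 for Fcrla and -0.27 to -0.26 for Tnfsf13b. With each tumor left out they ran from 0.46 to 0.98, 0.050 to 0.69, 0.64 to 1.46, 0.13 to 0.53, 0.38 to 0.99, 0.059 to 0.79, -0.15 to -0.034, -0.20 to 0.17 and -0.30 to -0.24 in the same order. The switched share, 0.54 points higher in PIIO-1 tumors, ran from -0.47 to 1.33 points with each tumor left out and changed sign without PIIO-1 tumor 2 (-0.071), PIIO-1 tumor 3 (-0.47) or PBS tumor 4 (-0.054). The lambda share ran from -9.69 to -5.75 points, with an exact permutation p of 0.0317 without PIIO-1 tumor 4 and between 0.0556 and 0.167 otherwise. The variable segments ran from 0.37 to 0.70 (exact permutation p 0.0556 to 0.286).

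Same-numbered tumors did not deviate together (correlations of their deviations between -0.21 and 0.095), so the numbers were not taken as pairs. With the replicate number as a block limma called 0 genes, member differences were the same by construction, and exact sign-flip p was 0.313 for the segments, 0.813 for the switched share and 0.188 for the lambda share, where 0.0625 is the smallest possible. Members under about 50 normalized counts rest on few reads (1 to 74 for Ms4a1).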

Other observations

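Nearest in rank to Ighm over the 10 tumors were Btla, an inhibitory receptor of lymphocytes, Cd300a, an inhibitory receptor of leukocytes, and Elmo1, a gene of cell migration (Spearman rho 0.99 each). Nearest to Pax5 were Ptpn9 (0.96), Plxna1 (0.95) and Lrsam1 (0.94). Plxna1, a semaphorin receptor, averaged 10670 ± 1275 normalized counts in PIIO-1 tumors and 11508 ± 768 in PBS tumors (SD, n = 5 each). Both sets were looked up after the values of Ighm and Pax5 were seen, and rho is a description over tumors.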
